A study of Mus musculus with 20 samples.

Results

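CXC chemokines and their receptors were followed across sorted cells of mouse mammary tumours. The genes are Cxcl12, Cxcl14 and Cxcl16 and the receptors Cxcr4, Cxcr6 and Ackr3, which are 6 of the 52783 genes in the count table, matched by Ensembl identifier. The data comprise 20 RNA sequencing libraries from 10 female BALB/cJ mice aged 8 to 12 weeks when bought. Each mouse carried a tumour grown from 1000000 cells of 1 line, 66cl4 or 67NR, injected into the mammary fat pad, and received no other treatment. Both lines belong to the 4T1 family. 66cl4 is the metastatic line of the pair, and 67NR forms primary tumours without metastases. Live cells were sorted on CD45, the leukocyte surface protein encoded by Ptprc, into a CD45+ and a CD45- library for each of 5 mice per tumour.

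CXCL12 is made mainly by stromal cells and draws cells that carry CXCR4, a receptor found on most leukocytes and on many tumour cells. ACKR3 also binds CXCL12 but does not couple to G proteins, and it removes the ligand from the tissue. CXCL16 is a membrane-bound chemokine of macrophages and dendritic cells that can be shed, and its receptor CXCR6 marks activated and tissue-resident T cells and NKT cells. CXCL14 is a chemokine of epithelia and connective tissue whose receptor is less settled, and it has been reported to act on CXCR4 signalling. In breast tumours the CXCL12 axis is best known for its part in leukocyte recruitment and in the homing of tumour cells.

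Cxcl14 was picked because it stood out between the CD45+ cells of the 2 tumours, and the other 5 genes were added as its family partners with results of these data known. The CD45+ comparison of the tumours is therefore a description for all 6 genes, with no test, and so is every comparison of Cxcl14 that uses CD45+ libraries. Tests were made for the other 5 genes between the gates of each tumour and for the genes measured well enough between the CD45- cells of the 2 tumours. The 4 comparisons share groups, so they are not independent of one another. The tests between the gates use the same CD45+ libraries in which Cxcl14 was picked. Levels below are normalised counts, that is, estimated counts divided by a size factor per library, and fold changes are on the log2 scale with their standard error (SE). Calls required an edgeR adjusted p-value below 0.05 together with a log2 fold change beyond 1 in either direction.

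Total counts were 12960000 to 28080314 per library. Ptprc was higher in the CD45+ than in the CD45- library of the same mouse in 10 of 10 mice, by 112 to 1932 times in 66cl4 and 33.6 to 149 times in 67NR tumours. The recorded cell type of both libraries of 66cl4 animals 5 and 6 contradicts their titles. Their libraries were grouped by title, and the fold changes of the 6 genes that involve 66cl4 are also given without these animals. The genes of the pathway lists named at the end kept their calls on 66cl4 without them, except where stated. Among the epithelial markers in CD45- cells, the keratin genes Krt8 and Krt18 averaged 5353 and 1149 normalised counts in 66cl4 but 61.6 and 58.6 in 67NR tumours. Epcam (12.1 and 32.8) and Cdh1 (20.8 and 32.9) were low in both. In sorted bulk RNA, fewer cells of a type and less RNA per cell cannot be told apart.

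The start regions of Cxcl14, Cxcr4 and Ackr3 are shown because the libraries of these genes lay higher in 66cl4 than in 67NR CD45+ cells, and that of Cxcr6 because its mean lay lower. Each line gives the 250 bases before the start of the gene, 5′ to 3′ on its own strand, from RefSeq on GRCm38.p6. RefSeq entries matched 5 of the 6 genes, and Cxcl16 had none. Capitals mark 4 searched motifs on either strand, the TATA box TATAAA, the GC box GGGCGG, the CCAAT box CCAAT and the hypoxia response core ACGTG or GCGTG.
Cxcl14, chr13:56296552-56296801, minus strand: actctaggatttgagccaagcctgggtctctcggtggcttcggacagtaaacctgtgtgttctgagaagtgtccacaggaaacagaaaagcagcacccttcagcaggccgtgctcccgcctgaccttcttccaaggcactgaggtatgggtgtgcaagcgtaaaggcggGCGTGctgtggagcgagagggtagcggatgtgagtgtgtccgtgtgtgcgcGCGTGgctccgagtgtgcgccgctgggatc
Cxcr4, chr1:128592300-128592549, minus strand: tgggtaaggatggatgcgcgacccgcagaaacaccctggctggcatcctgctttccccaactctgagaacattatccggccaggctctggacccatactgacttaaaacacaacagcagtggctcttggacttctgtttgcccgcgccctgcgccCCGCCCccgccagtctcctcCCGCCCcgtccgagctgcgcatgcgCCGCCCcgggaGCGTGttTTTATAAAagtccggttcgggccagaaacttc
Ackr3, chr1:90203730-90203979, plus strand: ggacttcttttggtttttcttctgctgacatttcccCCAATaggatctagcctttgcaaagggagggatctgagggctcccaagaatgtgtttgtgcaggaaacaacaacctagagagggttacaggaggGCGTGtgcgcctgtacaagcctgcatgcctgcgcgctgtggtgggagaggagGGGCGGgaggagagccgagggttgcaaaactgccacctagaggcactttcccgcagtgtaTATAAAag
Cxcr6, chr9:123806227-123806476, plus strand: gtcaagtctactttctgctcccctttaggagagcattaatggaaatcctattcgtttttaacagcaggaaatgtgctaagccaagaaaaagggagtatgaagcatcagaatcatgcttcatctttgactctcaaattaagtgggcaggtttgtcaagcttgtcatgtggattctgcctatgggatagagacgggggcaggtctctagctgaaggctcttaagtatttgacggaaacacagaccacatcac

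The hypoxia response core, the letters recognised by hypoxia-inducible factors, was present before Cxcl14, Cxcr4 and Ackr3 and absent before Cxcl12 and Cxcr6. It is a short motif that 38.6% of 32851 mouse start regions of this length hold. Cxcl14 held it in 2 places, at 81 to 77 and at 30 to 26 bases before the start, and had none of the other 3 motifs. TATAAA lay 30 to 25 bases before the start of Cxcr4, where its reverse complement overlaps it, and 8 to 3 bases before that of Ackr3, against 12.4% of all start regions. GC boxes were found before Cxcl12, Cxcr4 and Ackr3, against 32.7% of all start regions. CCAAT was found before Ackr3, against 33.8%. Cxcr6 had none of the 4 motifs, and its start region held 43.6% G and C, the lowest of the 5, against 64.4% for Cxcl12. These matches describe the letters and say nothing of binding.

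Cxcl12 and Cxcr4, a ligand and its receptor, lay on opposite sides of the sort in both tumours. Cxcl12 had 2912 to 4075 normalised counts in the 66cl4 CD45- libraries and 61.2 to 443 in the CD45+ libraries. Cxcr4 had 19.1 to 79.9 in the 66cl4 CD45- libraries and 5406 to 7867 in the CD45+ libraries. Cxcl16 and Cxcr6 were both on the CD45+ side. For Ackr3 the means of the gates were 903 in CD45+ and 926 in CD45- cells of 66cl4 tumours, but 176 and 953 in 67NR tumours. Per transcript length, Cxcl12 was the leading gene of the 6 in CD45- cells, with 69.7 TPM (a level scaled to transcript length and library size) in 66cl4 and 53.7 in 67NR, and Cxcr4 in CD45+ cells, with 275 and 124 TPM.

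**Figure D1:**
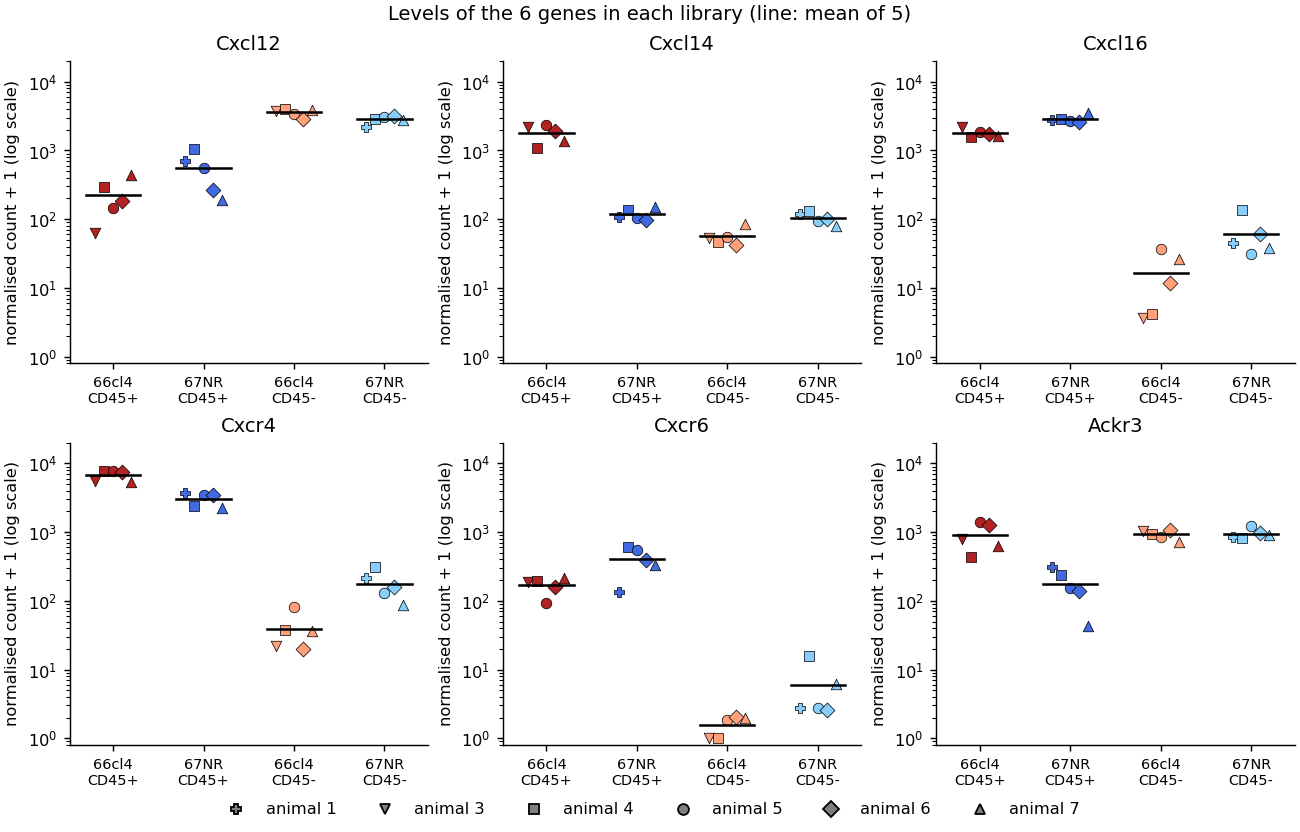
Normalised counts plus 1 on a log axis for each of the 6 genes, with 1 point per library, the 4 groups along the horizontal axis, a symbol per animal and a line at the mean of 5. Cxcl12 sits at 2231 to 4075 in all CD45- libraries, Cxcr4 and Cxcl16 sit at over 1000 in every CD45+ library, and Cxcl14 is at 1078 to 2371 in 66cl4 CD45+ libraries against 41.4 to 151 in every other library.

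Among the ligands, Cxcl12 was a gene of the CD45- cells. In 67NR tumours its normalised counts in animals 1, 4, 5, 6 and 7 were 2231, 2874, 3107, 3194 and 2733 in CD45- cells and 698, 1057, 554, 262 and 191 in CD45+ cells. In 66cl4 tumours animals 3, 4, 5, 6 and 7 had 3752, 4075, 3417, 2912 and 3922 in CD45- cells and 61.2, 294, 143, 180 and 443 in CD45+ cells. The gates did not overlap in either tumour, and the CD45+ library was the lower one in 5 of 5 animals of each. The log2 fold change of CD45+ over CD45- cells was -4.01 (SE 0.428, edgeR adjusted p = 4.18e-06) in 66cl4 and -2.34 (SE 0.409, adjusted p = 0.000359) in 67NR. Without 66cl4 animals 5 and 6 it was -3.90 in 66cl4 and still called.

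The CD45+ level of Cxcl12 was 6.20% of the CD45- level in 66cl4 and 19.5% in 67NR tumours. The 8 fibroblast markers, among them the collagen genes Col1a1, Col1a2 and Col3a1, had CD45+ levels of 4.03 to 45.4% of the CD45- level in 66cl4 (median 6.69%) and 5.41 to 16.5% in 67NR (median 9.55%). Cxcl12 in the CD45+ libraries followed the fibroblast markers animal by animal. Its order from high to low was 7, 4, 6, 5, 3 in 66cl4 and 4, 1, 5, 6, 7 in 67NR, which is in each case the order of the summed fibroblast markers, a likeness noticed after the values were seen. In 67NR the summed erythroid markers had this order too, at 956, 801, 296, 213 and 123, while in 66cl4 they had another order. The CD45+ libraries had fibroblast sums of 213 to 1533 for 66cl4 tumours, and of 905 to 3835 for 67NR tumours. The part of fibroblast RNA in the CD45+ values of Cxcl12 was not tested.

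Between the tumours Cxcl12 in CD45- cells was 3616 ± 463 (SD, n = 5) in 66cl4 and 2828 ± 380 in 67NR, and the libraries overlapped. Its log2 fold change of 0.39 (SE 0.114, edgeR adjusted p = 0.00826) was below the fold threshold, so it was not called. Without 66cl4 animals 5 and 6 it was 0.53, again under the fold threshold. The fibroblast markers were mixed in the same cells. The means of Pdgfra (4441 against 2953), Pdgfrb (1853 against 735) and Col1a2 (1195 against 940) were higher in 66cl4, and those of the other 5 were lower, with Dpt at 35.7 against 4261. In CD45+ cells Cxcl12 was 224 ± 148 in 66cl4 and 553 ± 350 in 67NR, with overlapping libraries and a log2 fold change of -1.29 (SE 0.570) as a description, or -1.05 without 66cl4 animals 5 and 6 and -0.83 with a block for the replicate number. The ratio of these means was 0.406, and it turned to 1.21 when each library was divided by its summed fibroblast markers. Of this sum Dpt alone averaged 704 of 2119 in 67NR but 16.2 of 728 in 66cl4 CD45+ libraries. The ratio with Dpt left out of the sum was not computed.

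Cxcl16, the ligand of Cxcr6, was a gene of the CD45+ cells. It had 2166, 1590, 1878, 1749 and 1611 normalised counts in the CD45+ libraries of 66cl4 animals 3, 4, 5, 6 and 7, and 2.65, 3.1, 35.8, 10.6 and 25.0 in their CD45- libraries. In 67NR animals 1, 4, 5, 6 and 7 it had 2819, 2872, 2675, 2574 and 3468 in CD45+ and 43.9, 134, 29.9, 59.4 and 36.8 in CD45- libraries. Every CD45+ library was above every CD45- library. The log2 fold change between the gates was 5.55 (SE 0.379, edgeR adjusted p = 2.13e-07) in 67NR. In 66cl4 it was 6.81 (SE 0.479), or 7.44 without animals 5 and 6, as a description with no test. There the gene met the filter on low counts through the CD45+ libraries alone, as 3 of 5 CD45- libraries reached its level.

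In CD45- cells the mean of Cxcl16 was lower in 66cl4 than in 67NR tumours, at 15.4 against 60.7 normalised counts. The log2 fold change was -1.93 (SE 0.642) as a description. No test is given, because the gene met the filter through the 67NR libraries alone. The groups overlapped, and the log2 fold change was -1.42 without the CD45- library of 67NR animal 4, which had 134. Without 66cl4 animals 5 and 6 it was -2.53. Leukocyte RNA moved with it. Ptprc in the CD45- libraries averaged 75.2 in 66cl4 and 267 in 67NR (log2 fold change -1.79, SE 0.658, adjusted p = 0.0361). Macrophage markers in these libraries summed to 153 to 1886 for 66cl4 tumours, against 1246 to 4399 for 67NR tumours, and 3 of 7 of them were called lower in 66cl4. Cxcl16 in CD45- cells was 0.858% of its CD45+ level in 66cl4 and 2.11% in 67NR, beside 0.754 to 1.31% and 1.94 to 3.12% for the 7 macrophage markers. The part of CD45+ cells carried into the CD45- gate was not tested.

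In CD45+ cells the Cxcl16 libraries of 66cl4 all lay below those of 67NR, at 1590 to 2166 against 2574 to 3468. This is a log2 fold change of -0.67 (SE 0.117) as a description, and -0.68 without animals 5 and 6. Macrophage markers summed to between 49058 and 75880 in these 66cl4 libraries, below every 67NR library, where the range was 76433 to 117218. Per 1000 counts of these markers Cxcl16 was 21.2 to 34.2 in 66cl4 and 29.6 to 37.0 in 67NR, where the libraries overlapped.

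Cxcl14 had a pattern unlike that of the other 2 ligands, and its CD45+ values are those that brought it into view. It had 2199, 1078, 2371, 1893 and 1367 normalised counts in CD45+ libraries of 66cl4 animals 3, 4, 5, 6 and 7. In CD45+ libraries of 67NR animals 1, 4, 5, 6 and 7 it had 105, 133, 102, 95.9 and 151. The means were 1781 ± 548 and 117 ± 23.8 (SD, n = 5), a ratio of 15.2 and a log2 fold change of 3.93 (SE 0.234), or 3.72 without 66cl4 animals 5 and 6. Per transcript length Cxcl14 was at 58.4 TPM in 66cl4 CD45+ cells, level with Cxcl16 at 59.2, and at 3.95 TPM in 67NR CD45+ cells, the lowest of the 6 genes.

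The CD45- cells of both tumours held little Cxcl14. Its normalised counts were 53.1, 46.1, 54.9, 41.4 and 83.8 in 66cl4 animals 3, 4, 5, 6 and 7, and 116, 129, 93.1, 101 and 78.7 in 67NR animals 1, 4, 5, 6 and 7. The libraries overlapped at a single pair, 66cl4 animal 7 above 67NR animal 7. The tested log2 fold change was -0.86 (SE 0.206, edgeR adjusted p = 0.00204), under the fold threshold and opposite in sign to that of the CD45+ cells. It passed both thresholds without the CD45- library of 66cl4 animal 7 (-1.04, adjusted p = 0.000321, in a range of 0.000233 to 0.0294 over all alternatives), and it was -0.71 without 66cl4 animals 5 and 6. Within animals the CD45+ level was 16.3 to 45.7 times the CD45- level in 66cl4 and 0.903 to 1.92 times in 67NR tumours.

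Cxcl14 in 66cl4 CD45+ libraries did not have the animal order of the macrophage markers. Per 1000 counts of the summed macrophage markers it was 18.0 to 34.7 in 66cl4 and 1.21 to 1.71 in 67NR CD45+ libraries. The fibroblast markers, which mark cells that can make CXCL14, were lower in the gate where Cxcl14 was high. They averaged 728 in 66cl4 CD45+ and 12107 in 66cl4 CD45- libraries. Neutrophil markers, given beside Ackr3, were higher in 66cl4 than in 67NR CD45+ libraries. The part of macrophages, fibroblasts and neutrophils in the level of Cxcl14 was not tested.

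Among the receptors, Cxcr4 was the most abundant of the 6 genes in CD45+ cells per transcript length, clear of the next gene in every 66cl4 library and overlapping with Cxcl16 in 67NR. Its normalised counts in CD45+ libraries were 5609, 7813, 7867, 7401 and 5406 in 66cl4 animals 3, 4, 5, 6 and 7, and 3716, 2366, 3449, 3427 and 2255 in 67NR animals 1, 4, 5, 6 and 7. All 66cl4 libraries lay above all 67NR libraries. As a description the ratio of the means was 2.24 and the log2 fold change 1.17 (SE 0.187), or 1.04 without 66cl4 animals 5 and 6.

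In CD45- cells the order was the reverse. Cxcr4 had 21.2, 36.2, 79.9, 19.1 and 34.9 normalised counts in 66cl4 animals 3, 4, 5, 6 and 7, and 211, 305, 128, 156 and 84.9 in 67NR animals 1, 4, 5, 6 and 7, with no overlap. It was lower in 66cl4 by a log2 fold change of -2.15 (SE 0.422, edgeR adjusted p = 0.000771), or -2.44, still called, without animals 5 and 6. Of the genes tested there (Cxcl12, Cxcl14, Cxcr4 and Ackr3) only Cxcr4 was called. Of all 14844 genes tested 32.2% were called, 13.2% higher and 18.9% lower in 66cl4. For 52.9% of all genes in this comparison the libraries of the groups did not overlap.

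Cxcr4 in CD45- cells was 0.561% of its CD45+ level in 66cl4 and 5.82% in 67NR tumours. The 4 leukocyte markers were at 0.322 to 0.873% in 66cl4 and at 0.990 to 2.34% in 67NR, so Cxcr4 lay inside their range in 66cl4 and above it in 67NR. Of the single cell types in 67NR, mast cell markers were at 19.6 to 32.0%, B cell markers at 4.23 to 16.7% and dendritic cell markers at 0.770 to 13.4%. The markers of T cells (0.637 to 2.84%), NK cells (0.453 to 1.26%), macrophages (1.94 to 3.12%), neutrophils (1.47 to 4.51%) and monocytes (0.983 to 3.80%) all lay below Cxcr4. Per 1000 counts of the summed leukocyte markers Cxcr4 was 69.9 to 291 in 66cl4 and 113 to 366 in 67NR CD45- libraries, which overlapped. The part of leukocyte RNA in these CD45- values was not tested.

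Between the gates Cxcr4 differed by a log2 fold change of 7.41 (SE 0.378, edgeR adjusted p = 1.15e-08) in 66cl4 and 4.10 (SE 0.328, adjusted p = 8.11e-07) in 67NR tumours. It was 7.59, still called, in 66cl4 without animals 5 and 6. The CD45+ library exceeded the CD45- library of the same animal by 98.4 to 387 times in 66cl4 and by 7.75 to 26.9 times in 67NR tumours, ranges that do not overlap. The difference of the 2 tumour effects, CD45+ minus CD45-, was 3.33 (SE 0.464), or 3.58 without 66cl4 animals 5 and 6, given as a description because it contains the CD45+ comparison.

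Cxcr6 was the lowest of the 6 genes in CD45- cells. It had 189, 195, 91.6, 158 and 213 normalised counts in CD45+ libraries of 66cl4 animals 3, 4, 5, 6 and 7, and at most 1 estimated count in each of their CD45- libraries. A count of 3 per library would be a level of 2.91, so the CD45+ mean of 169 was at least 58.3-fold higher. No test is given for it, because the gene met the filter through the CD45+ libraries alone. In 67NR tumours Cxcr6 had 133, 606, 557, 389 and 337 in CD45+ libraries of animals 1, 4, 5, 6 and 7 and 1.56 to 15 in CD45- libraries. The ratio of the means was 80.3, and 159 without the CD45- library of animal 4, the one at 15. Here 1 of 5 CD45- libraries reached the filter level, so no test is given either. Between the CD45- cells of the tumours its counts were too low for the filter and it was not tested.

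In CD45+ cells Cxcr6 averaged 169 ± 47.8 in 66cl4 and 404 ± 189 in 67NR tumours. The libraries overlapped through 67NR animal 1, and the log2 fold change was -1.24 (SE 0.360) as a description, or -1.02 without 66cl4 animals 5 and 6. Cxcr6 in 67NR had the animal order of the summed T cell markers, 4, 5, 6, 7, 1, and in 66cl4 both were highest in animals 7 and 4 and lowest in animal 5. The T cell sums overlapped between the tumours, at 1102 to 4518 for 66cl4 and 974 to 3900 for 67NR, with a median log2 fold change of 0.43 over the 6 markers. Per 1000 counts of these markers Cxcr6 was 39.3 to 97.8 in 66cl4 and 108 to 155 in 67NR, without overlap. The NK cell markers were also lower in 66cl4 as a group, with sums of 529 to 1946 for 66cl4 tumours but 1177 to 12762 for 67NR tumours. Of them 4 of 4 tested were called lower, and 3 without 66cl4 animals 5 and 6. In 67NR the NK cell sums had the animal order 7, 6, 5, 4, 1, as did the leukocyte and macrophage sums. Mast cell markers were called lower in 66cl4 for 5 of 5. The part of either cell type in the result was not tested.

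Ackr3, the atypical receptor for CXCL12, averaged 926 ± 146 in 66cl4 and 953 ± 161 (SD, n = 5) in 67NR CD45- cells, and the libraries overlapped. Its normalised counts were 1055, 948, 835, 1065 and 725 in 66cl4 animals 3, 4, 5, 6 and 7, and 851, 810, 1220, 967 and 916 in 67NR animals 1, 4, 5, 6 and 7. The log2 fold change was -0.01 (SE 0.132, edgeR adjusted p = 0.95), the nearest to 0 of the 5 genes that met the filter there. It was also -0.01 without 66cl4 animals 5 and 6. In CD45+ cells it had 794, 434, 1410, 1250 and 629 in 66cl4 animals 3, 4, 5, 6 and 7, and 307, 240, 152, 139 and 42.2 in 67NR animals 1, 4, 5, 6 and 7. All 66cl4 libraries lay above all 67NR libraries, with a ratio of means of 5.13 and a log2 fold change of 2.36 (SE 0.496) as a description, or 1.81 without 66cl4 animals 5 and 6.

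Between the gates Ackr3 was lower in CD45+ cells in 5 of 5 67NR animals, with a log2 fold change of -2.44 (SE 0.402, edgeR adjusted p = 0.00024). In 66cl4 it was higher in CD45+ cells in 2 animals and lower in 3, with a log2 fold change of -0.07 (SE 0.278, adjusted p = 0.831). The 2 animals in which it was higher are 5 and 6, whose labels contradict each other. Without them the value was -0.60 (adjusted p = 0.0528, in a range of 0.0528 to 1 over all alternatives). Set per transcript length, Ackr3 was 4.33 to 14% of Cxcr4 in 66cl4 and 1.46 to 7.90% in 67NR CD45+ libraries, and exceeded Cxcr4 in every CD45- library.

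Neutrophil markers moved with Ackr3 in the CD45+ libraries. Markers of neutrophils, granulocytes that carry S100a8 and S100a9, summed to between 40226 and 118616 for 66cl4 and between 6681 and 49494 for 67NR tumours. Of the 6 markers 4 were called higher in 66cl4, but 1 without animals 5 and 6. In 67NR the order of the animals was 1, 4, 5, 6, 7 for both Ackr3 and these markers, and in 66cl4 both were highest in animals 5, 6 and 3, a likeness noticed after the values were seen. The leukocyte, NK cell and macrophage sums of the 67NR CD45+ libraries ran in exactly the reverse order, 7, 6, 5, 4, 1, so the order is not particular to neutrophil markers. Per 1000 counts of the markers Ackr3 was 7.20 to 15.6 in 66cl4 and 6.21 to 9.88 in 67NR CD45+ libraries, which overlapped. In the CD45- libraries Ackr3 was 1595 or more per 1000 counts of the same markers. The part of the neutrophils in the CD45+ values of Ackr3 was not tested.

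**Figure D2:**
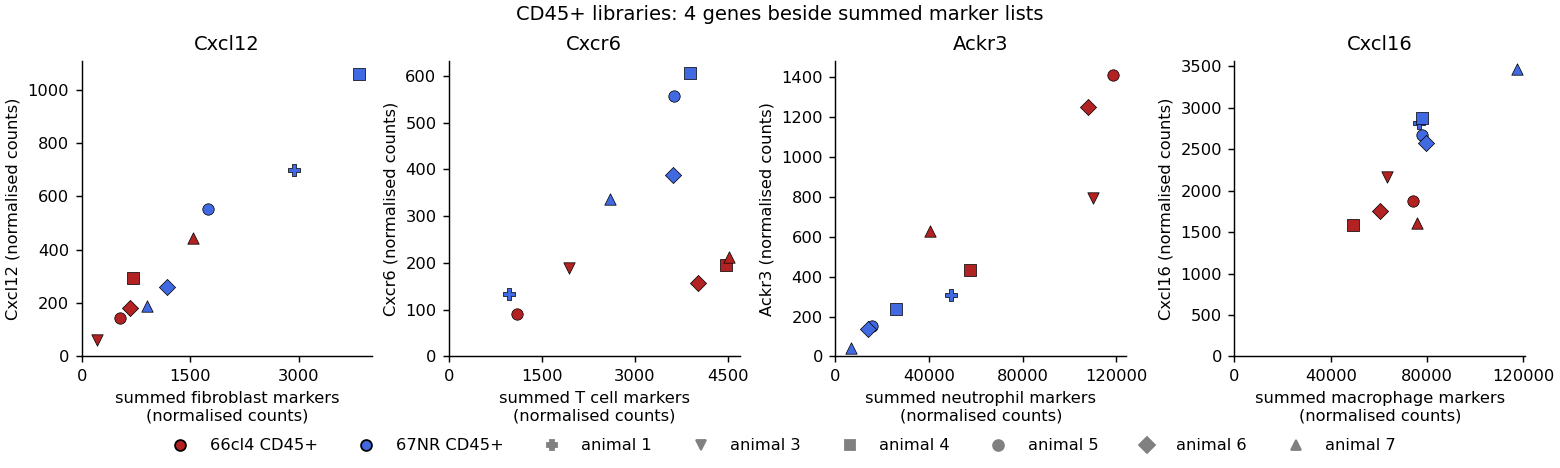
Normalised counts of Cxcl12, Cxcr6, Ackr3 and Cxcl16 in the 10 CD45+ libraries (vertical axes) against the summed markers of fibroblasts, T cells, neutrophils and macrophages (horizontal axes), with a colour per tumour and a symbol per animal. Points of both tumours lie along 1 band for Cxcl12 and Ackr3, while 4 of the 67NR points for Cxcr6 stand above all 66cl4 points.

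Between the gates of 66cl4 tumours 44.4% of all genes tested were called, 23.9% higher and 20.5% lower in CD45+ cells, and 61.4% did not overlap. Of the genes tested there, Cxcl12 and Cxcr4 were called and Ackr3 was not. Cxcl16 and Cxcr6 met the filter through 1 group only and are described with no test. In 67NR tumours 39.8% of all genes were called, 20.2% higher and 19.6% lower, and 55.5% did not overlap. There Cxcl12, Cxcl16, Cxcr4 and Ackr3 were called, and Cxcr6 again met the filter through the CD45+ libraries only. In the CD45+ comparison of the tumours, in which Cxcl14 was picked, 11.8% of all genes were called, 5.01% higher and 6.82% lower in 66cl4, and 15.1% did not overlap, 7.11% above and 7.96% below. Of the 6 genes Cxcl14, Cxcr4 and Ackr3 lay above without overlap, Cxcl16 lay below, and Cxcl12 and Cxcr6 overlapped. The difference of the tumour effects between the gates was 4.80 (SE 0.316) for Cxcl14, 2.40 (SE 0.501) for Ackr3, 1.28 (SE 0.596) for Cxcl16 and -1.65 (SE 0.585) for Cxcl12, all descriptions. Without 66cl4 animals 5 and 6 the values were 4.54, 1.92, 1.98 and -1.47 in the same order.

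**Figure D3:**
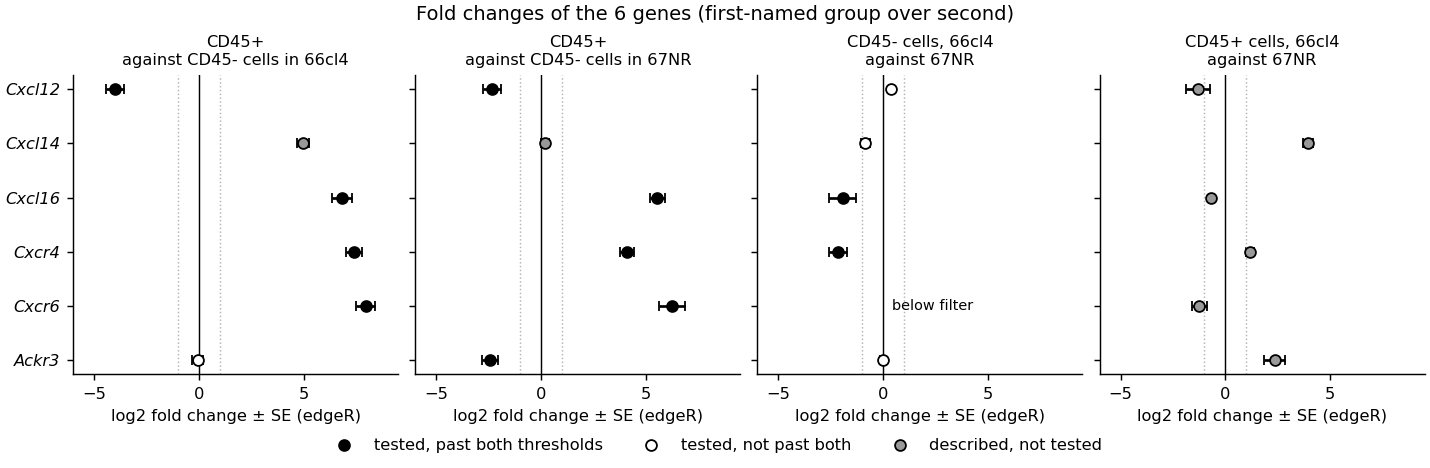
Log2 fold changes (horizontal axis, bars 1 SE) of the 6 genes in the 4 comparisons, with dotted lines at the fold threshold of 1 in each direction and the point filled by whether it was tested and called. The 2 left panels place Cxcl16, Cxcr4 and Cxcr6 on the CD45+ side and Cxcl12 on the CD45- side, and the Cxcr6 point of 66cl4 rests on CD45- libraries of at most 1 count, so its size is not a bound. The Cxcr6 points of both gate panels are drawn as called but rest on a filter met by 1 group only. The same holds for the Cxcl16 points of the 66cl4 gates and of the CD45- cells.

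Beside the markers of the cell types a sort on CD45 could hold, Cxcl16 lay within the range of the macrophage markers in both tumours. Cxcl12 lay within that of the 8 fibroblast markers in 66cl4 and just above it in 67NR tumours. Ackr3 was also just above them in 67NR, and further above all 8 in 66cl4. Cxcl14 lay below every leukocyte marker and above every fibroblast marker in both tumours. Endothelial markers were mixed in the sort, with 3 called higher and 2 lower in CD45+ cells of 66cl4 and 1 higher and 4 lower in 67NR tumours.

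**Figure D4:**
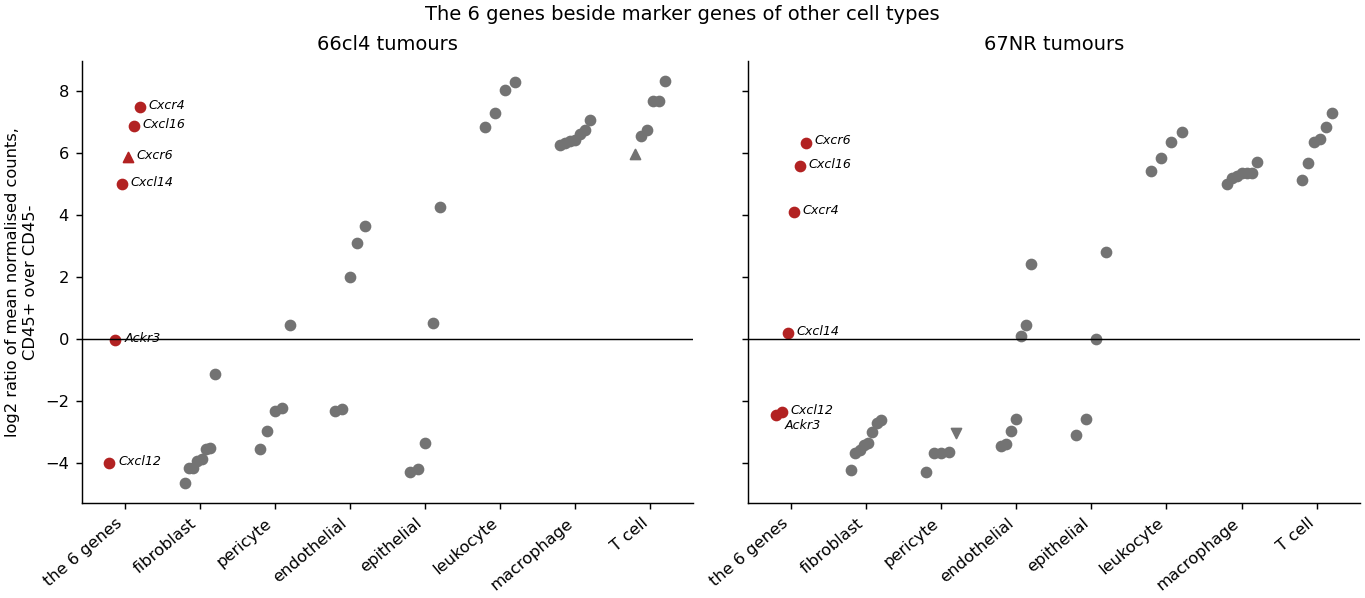
Log2 ratio of the mean normalised counts in CD45+ over CD45- cells (vertical axis) for the 6 genes, in red, and for the genes of 7 marker lists, in grey, in 66cl4 and 67NR tumours. Circles are values, and triangles are bounds for genes with at most 3 counts in every library of 1 gate. Cxcl12 is at -4.01 among the fibroblast markers of 66cl4 and at -2.36 just above those of 67NR tumours.

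Genes with the most similar course over the 20 libraries were sought among 16360 genes, by the root-mean-square difference of centred log2 CPM. For Cxcl12 they were Emp2, Nfib and Amotl1, at 0.267 to 0.271. For Cxcl16 they were Gatm, Pld4 and Maf, at 0.225 to 0.291, and for Cxcr4 they included St8sia4 at 0.459 and Gda at 0.471. Cxcr6 was most like Pdcd1, the gene of the T cell receptor PD-1, at 0.464, followed by BC035044 and Shtn1. Ackr3 was most like Cd9, a tetraspanin, at 0.519, followed by Akr1b8 and Timp1, an inhibitor of metalloproteases. Much of each likeness is the contrast between the gates that these libraries share.

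For Cxcl14 the nearest genes were Gabbr2 at 0.396, Fam20a at 0.453 and Col14a1 at 0.633. Gabbr2 encodes a subunit of the GABA-B receptor and Col14a1 a fibril-associated collagen. All of them were high in 66cl4 CD45+ cells and low elsewhere. Fam20a averaged 294 normalised counts in 66cl4 CD45+, 17.5 in 67NR CD45+, 6.49 in 66cl4 CD45- and 19.1 in 67NR CD45- cells. Col14a1 averaged 740, 53.3, 30.4 and 69.6 in the same groups, and Gabbr2 52.5, 2.24, 0.366 and 1.34.

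The genes that trim these chemokines or share their receptors were followed as a list of 11. In CD45- cells 1 of 9 tested was called higher and 3 lower in 66cl4, beside 13.2% and 18.9% of all genes, with a median log2 fold change of -0.70 against -0.01 for all genes tested. Mmp2, a gelatinase that can cleave CXCL12, had 157 ± 54.3 normalised counts in 66cl4 and 3929 ± 698 in 67NR CD45- cells (log2 fold change -4.61, SE 0.249, edgeR adjusted p = 8.44e-09). Mmp9, the other gelatinase, was higher in 66cl4, at 801 ± 148 against 248 ± 52.8 (log2 fold change 1.72, adjusted p = 3.92e-07). Both kept these directions in CD45+ cells. The count over the list there was 2 called of 10 tested, Mmp2 included, beside 11.8% of all genes. Mmp9 was 7973 ± 2437 in 66cl4 and 552 ± 150 in 67NR CD45+ cells (log2 fold change 3.86, adjusted p = 1.16e-05). Mmp2 was 18.1 ± 10.9 and 461 ± 345 (log2 fold change -4.63, with no test). Mmp2 met the filter on low counts there through the 67NR libraries alone, as 4 of 5 66cl4 libraries reached its level. The summed fibroblast markers of the CD45+ libraries averaged 728 in 66cl4 and 2119 in 67NR. The part of fibroblast RNA in the CD45+ values of Mmp2 was not tested.

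Dpp4, the peptidase that inactivates CXCL12, was higher in CD45+ than in CD45- cells of both tumours. It averaged 692 against 8.17 normalised counts in 66cl4 (log2 fold change 6.39, with no test) and 727 against 31.4 in 67NR (4.54, edgeR adjusted p = 9.71e-08). In 66cl4 Dpp4 met the filter on low counts through the CD45+ libraries alone, as 1 of 5 CD45- libraries reached its level. Cd74, the receptor for the CXCR4 ligand MIF, was higher in CD45+ cells by 7.58 in 66cl4 (adjusted p = 1.56e-08) and by 5.96 in 67NR (adjusted p = 5.24e-06). Of the 10 genes tested between the gates, 6 were called higher and 2 lower in CD45+ cells of 66cl4, and 4 higher and 3 lower in 67NR tumours. Of all genes 23.9% were called higher and 20.5% lower in 66cl4, and 20.2% and 19.6% in 67NR.

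Genes that carry or end the signal of chemokine receptors were followed as a list of 26. Between the gates of 66cl4, 21 were called on the CD45+ side and 1 on the CD45- side (median log2 fold change 2.92, against 0.00 for all genes tested), and in 67NR tumours 17 and 1 (median 1.54, against -0.05). The CD45+ side held 23.9% of all genes in 66cl4 and 20.2% in 67NR, and the CD45- side 20.5% and 19.6%. Vav1, a signal transducer of leukocytes, averaged 1211 against 5.75 normalised counts in 66cl4 (log2 fold change 7.60, with no test) and 1112 against 24.3 in 67NR (5.49, edgeR adjusted p = 9e-09). Pik3cg, the G protein-coupled PI3 kinase of leukocytes, was higher by 7.53 in 66cl4 (with no test), and Rgs1, which ends G protein signals, by 5.88 in 67NR (adjusted p = 1.77e-07). In 66cl4 Vav1 and Pik3cg met the filter on low counts through the CD45+ libraries alone, as 1 and 3 of 5 CD45- libraries reached its level.

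In CD45- cells 11 of 25 tested signalling genes were called, each lower in 66cl4 tumours, with a median of -0.87 against -0.01 for all genes, of which 32.2% were called and 18.9% were called lower. Ptk2b, a focal adhesion kinase, had 51.3 ± 14.3 normalised counts in 66cl4 and 474 ± 25.0 in 67NR (log2 fold change -3.17, edgeR adjusted p = 8.65e-10). Rgs2 had 395 ± 129 and 3219 ± 416 (-2.99, adjusted p = 6.65e-08). Leukocyte RNA was also lower in these 66cl4 libraries, as given for Ptprc, and its part in the list was not tested. In CD45+ cells 2 of 26 were called, beside 11.8% of all genes, both lower in 66cl4, namely Nedd4 (-1.39, adjusted p = 0.0287) and Rgs16 (-1.26, adjusted p = 0.0071), and both calls were lost without 66cl4 animals 5 and 6. Dpp4, Vav1 and Pik3cg between the gates of 66cl4, and Mmp2 between the CD45+ cells of the tumours, met the filter on low counts through their higher group alone. They are therefore given with no test.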

How the data were processed

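The 2 sorted gates of each 66cl4 or 67NR tumour were sequenced (SENSE mRNA-Seq V2 libraries). The authors trimmed the reads, estimated transcript counts with Salmon 1.3.0, used tximport to add them up per gene and deposited these estimated counts with no normalisation. Per the labels and methods the reference was GRCh38, a human build, whereas the identifiers are those of mouse, and the mouse build is not given in the sources used here. Reads that fit several genes are divided by the estimation, so 15.1 to 18.0% of a library's values had decimals, and all were rounded. Symbols were found for 51492 of 52783 identifiers. Total counts were 12960000 to 28080314, and a floor of 3 counts covers counting error only. No replicates agreed within sampling noise (chi-square per degree of freedom 13.5 to 170).

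Libraries were grouped by title. Each number and tumour marks 1 mouse. The 6 genes, the pathway and marker lists and the tests were chosen with earlier results of these data known. The genes named are the 6, the 3 most similar genes for each, Ptprc, and for each pathway list and comparison up to 4 called genes of largest fold change in either direction. Of these, 1 is not reported here. Groups were compared over the whole table with edgeR 4.0.16 in R 4.3.3, by its quasi-likelihood test (TMM, its filter on low counts with a minimum count of 10 and total of 15, robust fit, only the groups compared), with Benjamini-Hochberg adjustment. The difference of the tumour effects was estimated over the 20 libraries. Levels are counts divided by size factors of DESeq2 1.42.0. TPM used median transcript lengths, which 1291 identifiers lacked (2.58% of counts). The alternatives tried were RLE factors, DESeq2's Wald test, no filter at all, at least 10 counts in 5 libraries, a fit over all 20 libraries, a replicate block, leaving out 66cl4 animals 5 and 6, leaving out each library in turn, and CPM and TPM for levels. Levels divided by marker sums were added after the values were seen. The edgeR and DESeq2 steps were tested on simulated data. Python 3.11.15 with matplotlib 3.10.9 drew the figures.

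Both gates of 1 tumour come from the same mouse, which pairs them. Their deviations from their groups correlated at 0.0251 to 0.148 for 66cl4 mice and at -0.00326 to 0.324 for 67NR mice.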

Additional observations from a re-analysis of the deposited data

Results flagged for a closer look

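In 4 of 28 groups of 5 libraries examined (the 6 genes and the total count, in each of the 4 groups) 1 library stood apart from the others, where chance gives about 1.4. Cxcl16 in the CD45- library of 67NR animal 4 was 134 normalised counts, against 29.9 to 59.4 in the other libraries of the group. Cxcr6 in the same library was 15, against 1.56 to 5.11. Cxcr4 in the CD45- library of 66cl4 animal 5 was 79.9, against 19.1 to 36.2. The CD45- library of 67NR animal 7 had a total count of 16917109, against 21199064 to 22180348.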

How the results depend on the processing

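In CD45- cells the log2 fold change of Cxcl16 between the tumours, a description, was -1.93, and -1.90 with no filter. With 1 library left out at a time the values were -2.52 to -1.42 for Cxcl16 and -1.04 to -0.76 for Cxcl14. The call of Cxcr4 held under every alternative run. So did the calls between the gates for Cxcl12 and Cxcr4 in both tumours and for Cxcl16 and Ackr3 in 67NR. The difference of the tumour effects of Cxcr6 moved from 1.72 to 2.69 without 66cl4 animals 5 and 6, and the cause was not tested. Divided by the marker sums, the ratio of 66cl4 to 67NR CD45+ means went from 0.406 to 1.21 for Cxcl12, which turns its direction. The unlike Dpt values given with Cxcl12 enter that sum. The ratio went from 5.13 to 1.3 for Ackr3, from 0.624 to 0.836 for Cxcl16 and from 0.419 to 0.456 for Cxcr6.

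Libraries of different tumours have nothing in common but a number, which 4 of 5 animals per tumour have in common. Same-numbered libraries had correlations of -0.145 to 0.0829, and 1 of 16 libraries correlated best with its own number. With the replicate block in CD45- cells the log2 fold change of Cxcl16 was -1.75, while genes called of all tested went from 4774 to 4839. The block changed no call of the members tested, those of the paired gates included. Of the 3 genes most like each, 1 remained for Cxcl12, Cxcr4 and Cxcr6 without 66cl4 animals 5 and 6, and the cause was not tested.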

Other observations

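The other CXC chemokines were counted as a list of 12. Between the CD45+ cells of the tumours 1 of 10 tested was called higher and 4 lower in 66cl4, where 11.8% of all genes were called. Cxcl2, a neutrophil attractant, averaged 36846 ± 13649 normalised counts in 66cl4 and 9735 ± 4909 (SD, n = 5) in 67NR (log2 fold change 1.91, SE 0.412, edgeR adjusted p = 0.00778). Cxcl9 and Cxcl11, ligands of CXCR3, were lower in 66cl4, with Cxcl9 at 769 ± 133 against 3026 ± 1198 (-1.97, adjusted p = 0.000332) and Cxcl11 at 339 ± 131 against 949 ± 203 (-1.47, adjusted p = 0.00176). Cxcl13, a B cell attractant, was at 59.0 ± 63.5 against 1504 ± 1146 (-4.60, with no test). In CD45- cells 3 of 11 were called higher and 5 lower in 66cl4, beside 13.2% and 18.9% of all genes. There Cxcl3 was at 784 ± 141 against 54.3 ± 65.3 (3.85, with no test). Cxcl10 was at 149 ± 24.5 against 1281 ± 423 (-3.06, edgeR adjusted p = 1.31e-07). Cxcl13 in CD45+ and Cxcl3 in CD45- cells met the filter on low counts through their higher group alone, so no test is given for them.

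Of the other CXC and atypical receptors, 3 of 5 tested were called higher and 1 lower in 66cl4 CD45+ cells, beside 5.01% and 6.82% of all genes. Without 66cl4 animals 5 and 6 only 1 call was left, on the higher side. Cxcr2, the neutrophil receptor for Cxcl2, averaged 5680 ± 1750 against 1401 ± 870 (2.01, edgeR adjusted p = 0.00724), and Cxcr3 208 ± 75.8 against 444 ± 208 (-1.06, adjusted p = 0.0432). The neutrophil markers were called higher for 4 of 6 in the same comparison, and their part was not tested. In CD45- cells Ackr4, a scavenger of CC chemokines, averaged 230 ± 8.37 in 66cl4 and had at most 2 counts in each 67NR library, so it was at least 89.1-fold higher against a floor of 3 counts per library, with no test, since it met the filter on low counts through the 66cl4 libraries alone.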
